A study of Homo sapiens with 9 samples.

Results

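Hairpin RNAs of a pair aimed at one transcript, the long noncoding RNA HUMT, were compared head to head: 3 libraries labelled sh2-HUMT against 3 labelled sh1-HUMT, which are 6 of the 9 RNA-seq libraries of the series. The cells were labelled PC9/GR, a lung adenocarcinoma line with acquired resistance to gefitinib, which blocks the kinase of the EGF receptor. All groups share that label of a resistant line. The remaining 3 libraries, from cells with a control hairpin (shNC), enter only as levels beside the hairpin groups and in the estimate of spread. The labels give no time after hairpin delivery, no vector and no statement that the replicates are separate cultures or clones, so the p-values reflect the spread among the libraries, and that spread may be purely technical. Some titles spell the target HUNT, and headers in the table call the cells A549, which is a different line of lung adenocarcinoma, and the hairpins "Si", so cell and group identity both rest on the sample labels.

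A hairpin is processed into a short guide RNA that pairs with its target, and its seed can also pair with other transcripts, so hairpins of different sequence against one target are used to tell the effect of the target from effects of one guide. Several of the genes described below belong to the amino acid response, and a pair of them to the heat shock response. When amino acids run short or the endoplasmic reticulum is stressed, kinases phosphorylate the initiation factor eIF2-alpha, translation of the transcription factor ATF4 goes up, and ATF4 with C/EBP partners turns on amino acid transporters, enzymes of serine, glycine and asparagine synthesis, and many of the synthetases that load amino acids onto tRNA. Heat shock factors act separately and raise chaperones such as the inducible HSP70 proteins.

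Library totals ran from 21891031 to 22159939 estimated counts, and the biological coefficient of variation within groups was 7.02%. Levels are in CPM, that is, counts divided by a scaled library size. Epithelial markers summed to 2930 to 2960 CPM in sh2-HUMT and 2820 to 2990 CPM in sh1-HUMT, whereas 5 lung lineage markers, NKX2-1, SFTPB, SFTPC, NAPSA and SLC34A2, summed to only 2.74 to 2.85 CPM in sh2-HUMT and 2.99 to 3.34 CPM in sh1-HUMT, with NKX2-1, the defining factor of that lineage, at no more than 0.269 CPM. Fibroblast markers summed to 25.6 to 27.8 CPM in sh2-HUMT and 23 to 24.4 CPM in sh1-HUMT, nearly all of it COL1A1, with DCN at 0 in all 6 libraries. Immune markers summed to 14.2 to 15.5 CPM in sh2-HUMT and 12.4 to 14.1 CPM in sh1-HUMT, nearly all of it CD14, with the defining PTPRC at no more than 0.223 CPM. Whether the marker levels match PC9/GR or A549 was not tested. One library stood apart: the first principal component of the 6 hairpin libraries, with 22.6% of the variance, placed sh1-HUMT replicate 2 at 45.3 and the others between -16.9 and 3, and the next component, with 21.5%, separated sh2-HUMT (17 to 20.2) from sh1-HUMT (-38.1 to -7.5).

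The target itself, HUMT, is listed as LINC00857. Its counts were 195, 212 and 190 in the libraries labelled sh2-HUMT, 206, 213 and 226 in those labelled sh1-HUMT, and 199, 214 and 181 in those labelled shNC. The ranges of all 3 groups overlapped, so the level of the target did not separate either hairpin group from the control, and the group names below stand for the labels only. On the log2 scale sh2-HUMT differed from sh1-HUMT by -0.10 (95% interval -0.30 to 0.09; adjusted p = 0.708, edgeR quasi-likelihood test with Benjamini-Hochberg adjustment, as for all adjusted p-values). None of 4 neighbouring genes was called between the hairpins: TMEM254 (-0.16, adjusted p = 0.357), ANXA11 (0.07, 0.329), PRXL2A (0.09, 0.339) and LOC100130698 (0.30, 0.861).

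Few genes differed between the hairpins, and by little. Of 18504 genes tested, 53 (0.286%) were called at an adjusted p under 0.05: 20 were higher in sh2-HUMT (0.108%) and 33 were lower (0.178%). The median size of the change in the called genes, regardless of direction, was 0.22 on the log2 scale, a 1.17-fold difference, and 2 of the 53, both with no reads in sh1-HUMT, differed at least 2-fold. Before adjustment 2185 genes (11.8%) had a p under 0.05, of which 1018 were higher (5.5%) and 1167 lower (6.31%), and the median signed change over all genes tested was 0.00. The unadjusted counts of the lists below are to be read beside these shares. DESeq2, a second method run on the same genes, called 167 higher and 188 lower of the 18504. Its counts in the lists below are to be read beside these totals. DESeq2 gave no adjusted p for some list members, which it therefore could not call. In each of the 53 called genes the 3 libraries of sh2-HUMT did not overlap the 3 of sh1-HUMT. This is no separate support, since the genes were picked for a difference between these libraries. Genes that were not called could separate too, such as AXL (231.7 to 234.6 CPM in sh2-HUMT, 244.6 to 247.7 CPM in sh1-HUMT, adjusted p = 0.239). The share of all genes tested that separate in this way was not counted. The split moved with one correction: after correcting for transcript length and GC content, 7 genes were higher and 40 lower. The count changed with the library left out. It was 1 without sh2-HUMT replicate 1, 6 without replicate 2 and 9 without replicate 3. Without sh1-HUMT replicates 1 and 3 it was 19 and 24, and without shNC replicate 1 it was 24. Without sh1-HUMT replicate 2, the library that stood apart, it was 155. Each such fit leaves 2 libraries in 1 group, and how much of the change comes from the smaller group was not tested. The 1 gene still called without sh2-HUMT replicate 1 was HSPA1A, and the other 52 calls had adjusted p-values of up to 0.227 there.

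**Figure D1:**
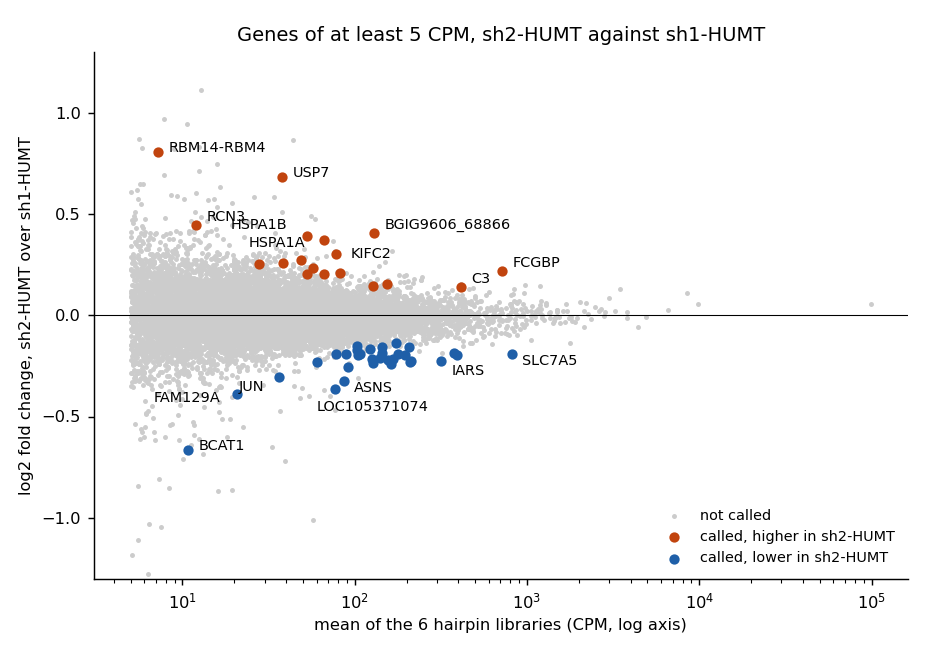
Each point is 1 of 12562 genes with a mean of at least 5 CPM over the 6 hairpin libraries, which is plotted on a log axis against the log2 fold change of sh2-HUMT over sh1-HUMT; 3 genes lie beyond the plotted range. The 50 called genes are coloured, and the largest change among them is 0.81; most genes called lower sit near -0.2.

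The genes lower in sh2-HUMT included many of the amino acid response. Of 30 genes listed as ATF4 response, 29 were tested and 10 fell in sh2-HUMT, with none higher, against 0.178% of all genes lower. At an unadjusted p under 0.05, 20 of the 29 were lower and none higher, 27 of 29 changes were negative, and the median was -0.17 against 0.00 over all genes. In bulk RNA, fewer cells with an active response and less RNA per cell cannot be told apart. The median stayed between -0.15 and -0.18 in all settings tried, but the number called was 0 without sh2-HUMT replicate 1, 1 without replicate 2 and 4 without replicate 3, against 9 without sh1-HUMT replicate 2.

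ATF4 is known to act through C/EBP-ATF response elements, and the letters TGATGNAA, which form the core of such elements, were searched on both strands of the 250 bases before each RefSeq transcription start (assembly GRCh38.p14). Of the 33 genes called lower, 29 had such a window and 7 of them (24.1%) held a match: ASNS, BCAT1, GARS, IARS, AARS, PTP4A1 and TCF12. Of the 20 called higher, 11 had a window and none held one. For comparison, 344 of the 13212 tested genes with a window (2.6%) and 3.9% of the 27305 RefSeq genes with one held a match. A gene can have several windows. Counted by window, 14.29% of those of genes called lower held a match, against 1.91% of those of tested genes. These are matches of letters, not measured binding. The 5 metabolic genes among the matches are shown with the match in capitals and up to 40 bases on either side, ending at the transcription start where it is nearer, to show that the same letters stand on either strand and at different distances from the start.
ASNS: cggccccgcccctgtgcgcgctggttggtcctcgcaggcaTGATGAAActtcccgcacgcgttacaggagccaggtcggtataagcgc
BCAT1: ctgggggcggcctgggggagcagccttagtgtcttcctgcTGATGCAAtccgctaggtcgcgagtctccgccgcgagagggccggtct
GARS: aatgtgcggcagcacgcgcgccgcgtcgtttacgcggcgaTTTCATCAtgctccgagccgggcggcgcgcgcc
IARS: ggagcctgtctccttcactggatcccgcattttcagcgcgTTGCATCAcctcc
AARS: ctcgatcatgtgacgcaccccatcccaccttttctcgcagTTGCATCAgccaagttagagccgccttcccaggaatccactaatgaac

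All are written 5′ to 3′ on the strand of the gene. The ASNS stretch is chr7:97872429-97872516 on the minus strand, with the match from 68 to 61 bases before the start, and the BCAT1 stretch is chr12:24949102-24949189 on the minus strand, with the match from 48 to 41 bases before it. In these 2 genes the motif runs along the gene. In the others it lies on the opposite strand: GARS (GARS1, chr7:30594805-30594877, plus strand) from 33 to 26 bases, IARS (IARS1, chr9:92293698-92293750, minus strand) from 13 to 6 bases, and AARS (AARS1, chr16:70289646-70289733, minus strand) from 187 to 180 bases before the start. These positions are RefSeq's and carry no measured value, since no source used here names the build behind the counts.

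Several enzymes that make amino acids or handle their nitrogen and carbon fell in sh2-HUMT. BCAT1, the cytosolic aminotransferase of branched-chain amino acids, had 8.12, 8.19 and 8.77 CPM in sh2-HUMT, 12.2, 13.4 and 14.03 CPM in sh1-HUMT, and 18.7 to 21.4 CPM in shNC. All 3 sh2-HUMT libraries lay below all of sh1-HUMT, and these below all of shNC. BCAT1 was 36.8% lower in sh2-HUMT than in sh1-HUMT (log2 -0.66 ± 0.08 SE, adjusted p = 0.0093). ASNS, asparagine synthetase, had 80.2, 70.3 and 78.7 CPM in sh2-HUMT, 97.6, 95.5 and 94.2 CPM in sh1-HUMT, and 147 to 166 CPM in shNC. It fell by 0.33 on the log2 scale (adjusted p = 0.0493), but reads of ASNS are shared with CZ1P-ASNS, a readthrough gene that contains it. Summed with CZ1P-ASNS the change was -0.15 (adjusted p = 0.0693), so a lower ASNS level and a split of reads between the 2 entries cannot be told apart.

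PSAT1, which makes phosphoserine on the path to serine, had 148, 145 and 150.5 CPM in sh2-HUMT, 168, 177 and 179 CPM in sh1-HUMT, and 276 to 280.4 CPM in shNC. It was 15.3% lower in sh2-HUMT (adjusted p = 0.0093), with groups that did not overlap. MTHFD2, the mitochondrial enzyme of folate-bound one-carbon units, averaged 184 ± 2.97 CPM in sh2-HUMT, 210.2 ± 3.24 CPM in sh1-HUMT and 312 ± 3.85 CPM in shNC (SD, n = 3 each; 12.7% lower in sh2-HUMT than in sh1-HUMT, adjusted p = 0.0093). PHGDH, the first enzyme of serine synthesis, was at 65.8 CPM in sh2-HUMT and 72.6 CPM in sh1-HUMT, with an adjusted p of 0.246. In a family of 15 tested genes of serine, glycine and one-carbon synthesis, added after the values were seen, only PSAT1 and MTHFD2 were called by edgeR. Both are also on the ATF4 list and were counted there. By DESeq2 3 genes of the family were called lower. Before adjustment 6 were lower and none higher, and the median was -0.07.

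Amino acid carriers gave 3 calls, all lower in sh2-HUMT and all already counted among the called ATF4 response genes. SLC7A1, the carrier of arginine and lysine, had 82.4, 80.2 and 85.7 CPM in sh2-HUMT, 99.5, 98.4 and 98.8 CPM in sh1-HUMT, and 114.5 to 117 CPM in shNC. Its groups were well apart, with a change of -0.26 (adjusted p = 0.0093). SLC7A5, the light chain of the LAT1 carrier of large neutral amino acids, had the highest mean over the 6 hairpin libraries of the called genes. It averaged 761 ± 14.5 CPM in sh2-HUMT, 868 ± 14.6 CPM in sh1-HUMT and 1004 ± 14.9 CPM in shNC (SD, n = 3 each; adjusted p = 0.0093). SLC7A11, the cystine carrier of the xCT exchanger and also on the list of NRF2 targets, averaged 130.4 ± 2.89 CPM in sh2-HUMT, 151 ± 5.4 CPM in sh1-HUMT and 175 ± 4.9 CPM in shNC (adjusted p = 0.0289). These 3 were the only ones called by edgeR of 24 tested amino acid transporters, a family added after the values were seen, and DESeq2 called 5 lower; 8 of the 24 were lower and none higher before adjustment, with a median of -0.09. SLC1A4, a carrier of alanine, serine and cysteine, missed the threshold at 26.5 CPM in sh2-HUMT against 31.4 CPM in sh1-HUMT (-0.24, adjusted p = 0.103).

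Synthetases that charge tRNA in the cytosol gave 7 calls, all lower in sh2-HUMT. IARS, which charges isoleucine, had 295, 289.9 and 291 CPM in sh2-HUMT, 345, 339.8 and 338 CPM in sh1-HUMT, and 444 to 461.5 CPM in shNC. GARS, which charges glycine, had 192, 190.1 and 195 CPM in sh2-HUMT, 226, 224 and 227.5 CPM in sh1-HUMT, and 344 to 359.5 CPM in shNC. Within each group the libraries of these genes lay within a few percent of each other, and the order sh2-HUMT, sh1-HUMT, shNC from low to high held for every library. IARS was 14.4% lower and GARS 14.9% lower in sh2-HUMT than in sh1-HUMT, each with an adjusted p of 0.00566.

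TARS (threonine, -0.22), MARS (methionine, -0.22), AARS (alanine, -0.20), EPRS (glutamate and proline, -0.19) and YARS (tyrosine, -0.17) also fell, with adjusted p-values from 0.0093 to 0.0217. MARS overlaps DDIT3, and their sum with ARHGAP9 changed by -0.24 (adjusted p = 0.00407); YARS overlaps S100PBP, and that sum changed by -0.08 (adjusted p = 0.221). Among the called synthetases, GARS and AARS are also on the ATF4 list. Thus 7 of 21 tested cytosolic synthetases were called, 14 were lower and none higher before adjustment, and their median was -0.13. CARS (-0.18), SARS (-0.14) and NARS (-0.13) came close, with adjusted p-values between 0.0746 and 0.0824. Of 17 synthetases of mitochondria none was called by edgeR or by DESeq2, which gave no adjusted p for 5 of the 17. Before adjustment 3 were lower and none higher, and the median was -0.03. Both families were added after the values were seen, and the difference between them was not tested. XPOT, the exportin that carries tRNA out of the nucleus, had 193, 197.5 and 196 CPM in sh2-HUMT, 234, 227 and 225 CPM in sh1-HUMT, and 296 to 305 CPM in shNC. It was 14.6% lower in sh2-HUMT (adjusted p = 0.00642). Of 7 exportins, a family also added after the values were seen, XPOT alone was called by edgeR, and DESeq2 called 2 lower.

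**Figure D2:**
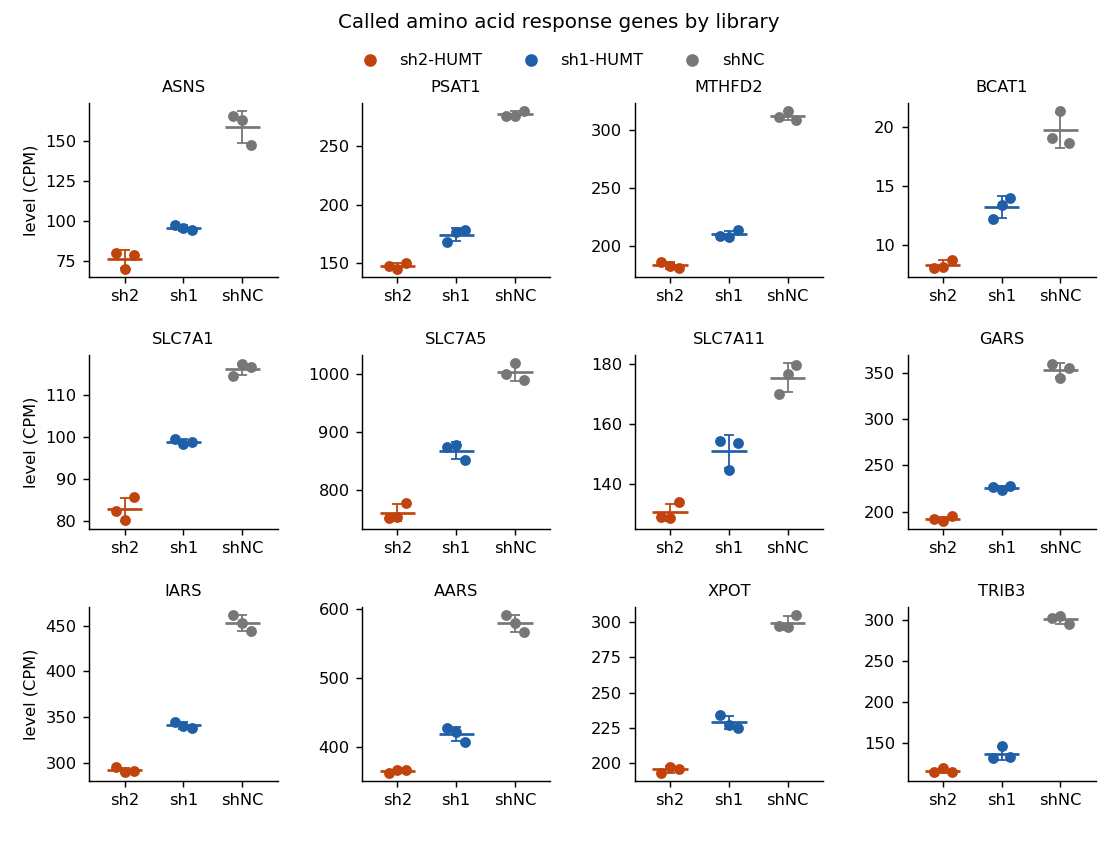
Each panel gives the level (CPM) of 1 called gene in every library, with sh2-HUMT left, sh1-HUMT in the middle and shNC right; lines are means, error bars are SD (n = 3), and the axes do not start at 0. In all 12 genes the sh2-HUMT libraries lie below the sh1-HUMT libraries and those below shNC, as for IARS with means of 292, 341 and 453 CPM.

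Regulators and secreted products of stress signalling were also among the genes called lower. TRIB3, a pseudokinase that restrains ATF4, had 115, 119.7 and 115 CPM in sh2-HUMT, 132, 146 and 133 CPM in sh1-HUMT, and 295 to 305 CPM in shNC (-0.23, adjusted p = 0.0338). PPP1R15A, the subunit that brings phosphatase to eIF2-alpha, averaged 72.5 ± 0.682 CPM in sh2-HUMT, 82.8 ± 1 CPM in sh1-HUMT and 527 ± 17.3 CPM in shNC (adjusted p = 0.0308). The hairpin groups were thus close to each other and far below the control. STC2, a secreted glycoprotein, averaged 97.6 ± 2.08 CPM in sh2-HUMT and 112 ± 0.388 CPM in sh1-HUMT (SD, n = 3 each; adjusted p = 0.0106). ADM2, a peptide hormone of the calcitonin family, had 3.01, 4.12 and 3.09 CPM in sh2-HUMT against 5.70, 6.79 and 6.30 CPM in sh1-HUMT and 5.83 to 6.22 CPM in shNC, so that sh2-HUMT alone was low (-0.88, adjusted p = 0.0249).

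FAM129A, now called NIBAN1, a stress-induced protein, fell by 0.39 on the log2 scale, with 17.9 CPM in sh2-HUMT and 23.5 CPM in sh1-HUMT (adjusted p = 0.0136). The transcript of ATF4 itself averaged 288 CPM in sh2-HUMT, 301 CPM in sh1-HUMT and 444 CPM in shNC, and its change of -0.07 did not pass (adjusted p = 0.43). DDIT3, the CHOP transcription factor, had 37.1, 39.3 and 41.1 CPM in sh2-HUMT against 42.6, 55.3 and 51.6 CPM in sh1-HUMT and 192 to 205 CPM in shNC, a change of -0.35 that also missed the threshold (adjusted p = 0.176); without sh1-HUMT replicate 1 it was -0.45 (0.0159), and over all settings its adjusted p ran from 3.4e-04 with DESeq2 to 0.427 without sh2-HUMT replicate 1. GDF15, a secreted stress cytokine, was at 299 CPM in sh2-HUMT against 340.3 CPM in sh1-HUMT (adjusted p = 0.0826). Among 22 genes that answer unfolded protein in the endoplasmic reticulum none was called by edgeR, and 2 were called lower by DESeq2; 1 was higher and 4 were lower before adjustment, with a median of -0.02, and its chaperone HSPA5 had a change of -0.04 (adjusted p = 0.801).

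**Figure D3:**
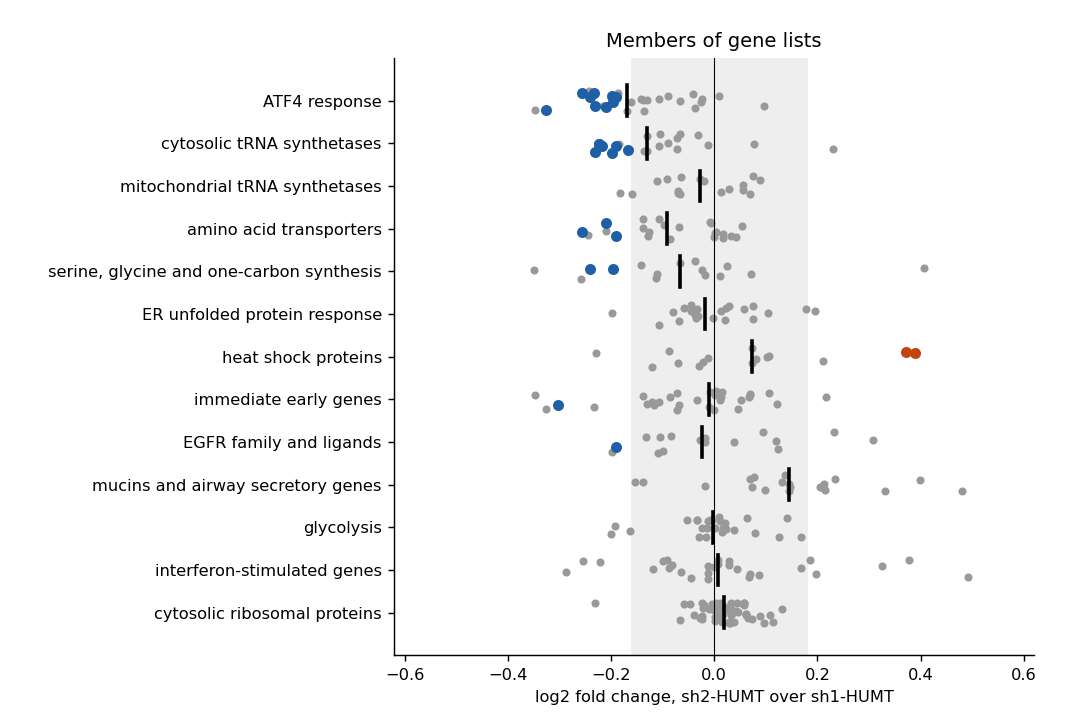
Each point is the log2 fold change of sh2-HUMT over sh1-HUMT for 1 member of a gene list; called members are blue (lower) or red (higher), black bars are list medians, and the grey band spans the 5th to 95th percentile (-0.16 to 0.18) of genes of at least 5 CPM. The ATF4 response (median -0.17) and cytosolic tRNA synthetases (-0.13) hold most blue points, the mucin list has its median at 0.14 with none called, and 3 points lie beyond the axis.

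The inducible HSP70 genes moved the other way. HSPA1A, which encodes the main stress-induced HSP70 chaperone, had 74.5, 76.0 and 74.1 CPM in sh2-HUMT, 60.6, 55.4 and 57.7 CPM in sh1-HUMT, and 1118, 1124 and 1120 CPM in shNC. Its near-identical neighbour HSPA1B had 59.3, 58.3 and 61.6 CPM in sh2-HUMT, 44.1, 50.6 and 42.2 CPM in sh1-HUMT, and 915 to 943.5 CPM in shNC. Both hairpin groups were far below the control, and within that low range sh2-HUMT was above sh1-HUMT in every library. HSPA1A was 29.3% higher in sh2-HUMT (log2 0.37 ± 0.03 SE, adjusted p = 0.00228), and HSPA1B 30.9% higher (adjusted p = 0.0204). Reads of these copies can be split by the estimation, and their sum rose by 0.38 on the log2 scale (adjusted p = 2.0e-04). HSPA1A was the only gene called in all 9 fits that left out 1 library, with a change between 0.34 and 0.41. It was not called in the fit of the hairpin groups alone with the replicate number as a block.

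Of 15 tested heat shock proteins these 2 were the only ones called by edgeR, and DESeq2 called 3 higher and 1 lower. Before adjustment 6 were higher and 2 lower, and the median was 0.07. DNAJB1, a co-chaperone of HSP70, was at 96.6 CPM in sh2-HUMT, 89.9 CPM in sh1-HUMT and 721 CPM in shNC (0.10, adjusted p = 0.194). HSPA6, an HSP70 gene that is nearly silent without stress, averaged 0.331 CPM in sh2-HUMT and 0.388 CPM in sh1-HUMT against 197 CPM in shNC, too little in both hairpin groups for a comparison between them. In the whole HSP70 family of 16 tested genes, added after the values were seen, DESeq2 called 3 higher and 2 lower; by edgeR HSPA2 (0.20, adjusted p = 0.0936) and the mitochondrial HSPA9 (-0.12, 0.0667) came nearest to a call in opposite directions.

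Among immediate early genes, which respond to growth factors and stress within minutes, JUN and EGR1 were likewise far below shNC in both hairpin groups. JUN, a subunit of the AP-1 transcription factor, had 31.3, 32.1 and 33.8 CPM in sh2-HUMT, 38.5, 42.6 and 39.0 CPM in sh1-HUMT, and 358 to 364 CPM in shNC. It was 19.0% lower in sh2-HUMT, with groups that did not overlap (adjusted p = 0.0164). EGR1, a zinc-finger factor, had 4.98, 4.71 and 5.14 CPM in sh2-HUMT, 6.01, 6.02 and 6.57 CPM in sh1-HUMT, and 321 to 332 CPM in shNC, and its change of -0.33 did not pass (adjusted p = 0.144). FOS, the partner of JUN, averaged 13.5 CPM in sh2-HUMT and 13.6 CPM in sh1-HUMT. Of 30 tested immediate early genes JUN alone was called by edgeR, and DESeq2 called 2 lower; 2 were higher and 6 lower before adjustment, and the median was -0.01.

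**Figure D4:**
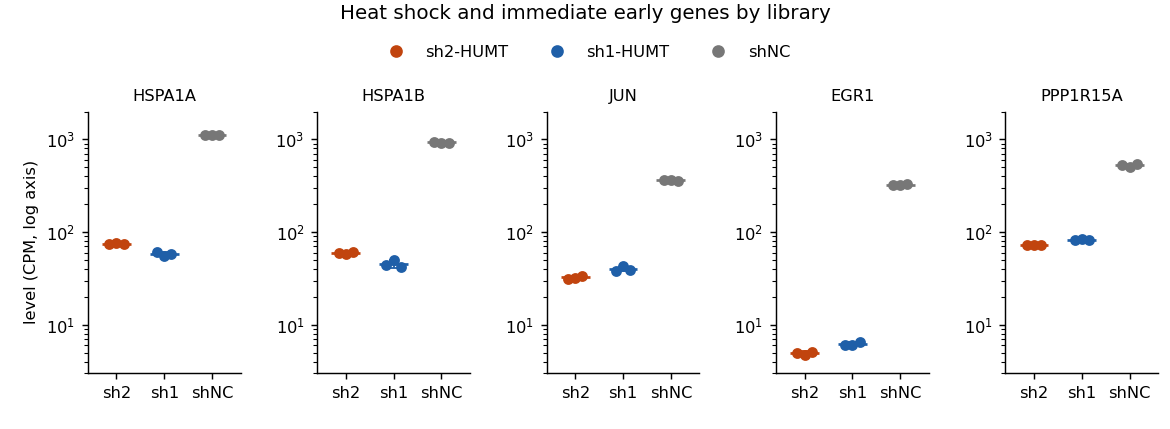
Levels (CPM, log axis) of 5 stress genes in every library, with sh2-HUMT left, sh1-HUMT in the middle and shNC right; lines are means and error bars SD (n = 3). The step between the hairpins (74.9 against 57.9 CPM for HSPA1A, 32.4 against 40 CPM for JUN) is small beside the distance of both from shNC.

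The EGF receptor family and its ligands gave 1 call by edgeR. EREG, the EGF receptor ligand epiregulin, had 101, 100.8 and 100.3 CPM in sh2-HUMT, 116, 113 and 116 CPM in sh1-HUMT, and 164 to 168 CPM in shNC (-0.19, adjusted p = 0.0106). DESeq2 called 1 higher and 1 lower among the 16 tested members of that list, of which 2 were higher and 5 lower before adjustment; EGFR itself was at 250.3 CPM in sh2-HUMT and 255 CPM in sh1-HUMT (adjusted p = 0.796).

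Further genes called lower were SMAD2 (-0.17), a transducer of TGF-beta signals, SGPL1 (-0.23), the lyase of sphingosine 1-phosphate, TMX2 (-0.19), a thioredoxin-related membrane protein, and PTP4A1 (-0.19), a phosphatase. DDX21 (-0.16), a nucleolar RNA helicase, BAZ1B (-0.16), a chromatin remodelling subunit, TCF12 (-0.15), an E-protein transcription factor, and TRIP12 (-0.14), a ubiquitin ligase, were also called, with adjusted p-values from 0.0106 to 0.0493.

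No list held more than 2 of the genes higher in sh2-HUMT. FCGBP, a mucus-associated protein, had 761.5, 747 and 806 CPM in sh2-HUMT, 679, 644 and 666 CPM in sh1-HUMT, and 429 to 459 CPM in shNC; it was 16.3% higher in sh2-HUMT (adjusted p = 0.0308). KIFC2, a kinesin, had 87.8, 85.4 and 86.5 CPM in sh2-HUMT, 73.6, 68.7 and 68.1 CPM in sh1-HUMT, and 74.4 to 78.7 CPM in shNC (0.30, adjusted p = 0.0093). In KIFC2 the control libraries lay between the hairpin groups, whereas in FCGBP they lay below both. LAMB3, a chain of laminin-332, averaged 56.4 CPM in sh2-HUMT, 49 CPM in sh1-HUMT and 67.9 CPM in shNC (0.20, adjusted p = 0.0421). C3, the central complement component, averaged 433 ± 3.5 CPM in sh2-HUMT, 393 ± 7.22 CPM in sh1-HUMT and 415 ± 10.1 CPM in shNC (adjusted p = 0.0493).

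RCN3, a calcium-binding protein of the endoplasmic reticulum, rose by 0.45 on the log2 scale, ARHGAP33, a GTPase-activating protein, by 0.26, SLCO4A1, an organic anion carrier, by 0.25, and B4GALNT4, a glycosyltransferase, by 0.23. FBRSL1 (0.21), TCIRG1 (0.15), a subunit of the vacuolar proton pump, and RBPMS (0.14), an RNA-binding protein, also rose. After correcting for transcript length and GC content, RBPMS was still called, while FCGBP, KIFC2, LAMB3, C3, RCN3, ARHGAP33, SLCO4A1, B4GALNT4, FBRSL1 and TCIRG1 were not, with adjusted p-values from 0.0948 for FCGBP to 0.504 for TCIRG1. Their changes stayed positive: that of C3 was 0.12 after the correction against 0.14 before it, that of RCN3 0.36 against 0.45, and that of FCGBP 0.16 against 0.22, while FBRSL1 was at 0.11 against 0.21 and TCIRG1 at 0.07 against 0.15. BGIG9606_68866, known only by a provider identifier, was 32.6% higher, with 152, 149.7 and 139 CPM in sh2-HUMT, 110.1, 100.1 and 122 CPM in sh1-HUMT, and 149.9 to 158 CPM in shNC (adjusted p = 0.0493).

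Of 21 tested mucins and other airway secretory genes none was called by edgeR. DESeq2 called 2 higher and gave no adjusted p for 10 of the 21. Before adjustment 8 were higher and none lower, against 5.5% of all genes higher and 6.31% lower. Of the 21 changes 18 were positive, against 9403 of 18504 over all genes, and the median was 0.14 against 0.00. CEACAM5, a cell adhesion antigen, had 9.33, 9.28 and 9.17 CPM in sh2-HUMT against 6.19, 6.65 and 7.06 CPM in sh1-HUMT and 8.04 to 9.44 CPM in shNC, the nearest to the threshold (0.48, adjusted p = 0.0612). MUC5AC, the gel-forming mucin, had 3538, 3599 and 3665 CPM in sh2-HUMT against 3317, 2978 and 3566 CPM in sh1-HUMT, which overlapped (adjusted p = 0.516).

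The glycolysis genes, which the series title ties to HUMT, gave no call between the hairpins by edgeR, and 3 higher and 1 lower by DESeq2. Of 26 tested, 4 were higher and 2 lower before adjustment, the median was 0.00, and the smallest adjusted p, 0.0612, belonged to the glucose carrier SLC2A3 (0.13) and the enolase ENO2 (0.14). HK2, the first enzyme of the path, was at 28.4 CPM in sh2-HUMT and 26.9 CPM in sh1-HUMT (adjusted p = 0.649). LDHA, lactate dehydrogenase, was at 1200 CPM in sh2-HUMT and 1191 CPM in sh1-HUMT (adjusted p = 0.918). PKM, pyruvate kinase, was at 2808 CPM in sh2-HUMT and 2817 CPM in sh1-HUMT (adjusted p = 0.975). In each of these genes the hairpin groups overlapped, as they did in PFKFB3, a regulator of phosphofructokinase, at 452 CPM in sh2-HUMT and 444.8 CPM in sh1-HUMT (adjusted p = 0.787). FOXK1, a transcription factor that promotes glycolysis, changed by -0.13 (adjusted p = 0.513).

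Lists that a foreign short RNA could engage held no call by edgeR either, and DESeq2 called 1 gene lower among the sensors and none in the other lists. By edgeR none of 29 interferon-stimulated genes was called (2 higher and 2 lower before adjustment, median 0.01), none of 11 sensors of double-stranded RNA (1 higher, 3 lower, median -0.04), and none of 13 genes of the RNA interference machinery (none higher, 1 lower, median -0.02). DESeq2 gave no adjusted p for 20 of the 29, 6 of the 11 and 2 of the 13, so it could not call those. Of 22 single genes listed by name for all comparisons, which include EGFR, MET, AXL, MKI67, CDH1, VIM and ABCB1, only JUN and KIFC2 were called by edgeR, and adjusted p-values of the others ran from 0.144 to 0.98.

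Some of the called genes overlap another entry or share reads with it. USP7, a deubiquitinase, had 46.4, 46.1 and 47.8 CPM in sh2-HUMT, 31.7, 30.8 and 25.02 CPM in sh1-HUMT, and 40.9 to 52.4 CPM in shNC (0.68, adjusted p = 0.0493). LOC105371074, its antisense gene USP7-AS1, went the other way, with 68.6, 69.5 and 63.7 CPM in sh2-HUMT, 86.9, 85.0 and 87.8 CPM in sh1-HUMT, and 64.6 to 73.8 CPM in shNC (-0.36, adjusted p = 0.0106). Together they had 115, 116 and 111.5 CPM in sh2-HUMT and 119, 116 and 113 CPM in sh1-HUMT, a change of -0.02 (adjusted p = 0.844). No source says that strand was used in counting, and without it reads from any stretch that both genes cover cannot be assigned to one of them.

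The readthrough gene RBM14-RBM4 was called higher (0.81, adjusted p = 0.0421), with 9.24, 8.37 and 9.84 CPM in sh2-HUMT and 5.97, 4.14 and 5.59 CPM in sh1-HUMT. Summed with RBM14 and RBM4 it changed by -0.03 (adjusted p = 0.721). Most of that sum was RBM4, with 85.1 to 87.1 CPM in sh2-HUMT and 88.1 to 92.4 CPM in sh1-HUMT. NPY4R2 was called higher (0.20), and its sum with the copy NPY4R and the overlapping ANXA8 changed by 0.03 (adjusted p = 0.773). For TRIP12, TCIRG1, RBPMS and TCF12 the sum with an overlapping gene changed as the gene did but missed the threshold (adjusted p = 0.0552 each). In the same fit genes that were not summed missed it too with about the same change, such as RCN3 (0.45, adjusted p = 0.0552), C3 (0.14, 0.056) and SMAD2 (-0.17, 0.0581), so the loss was not particular to summed genes. With all such sets summed, a step added after the values were seen, 34 genes were called, 8 higher and 26 lower, and 9 of the ATF4 response genes remained lower.

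**Figure D5:**
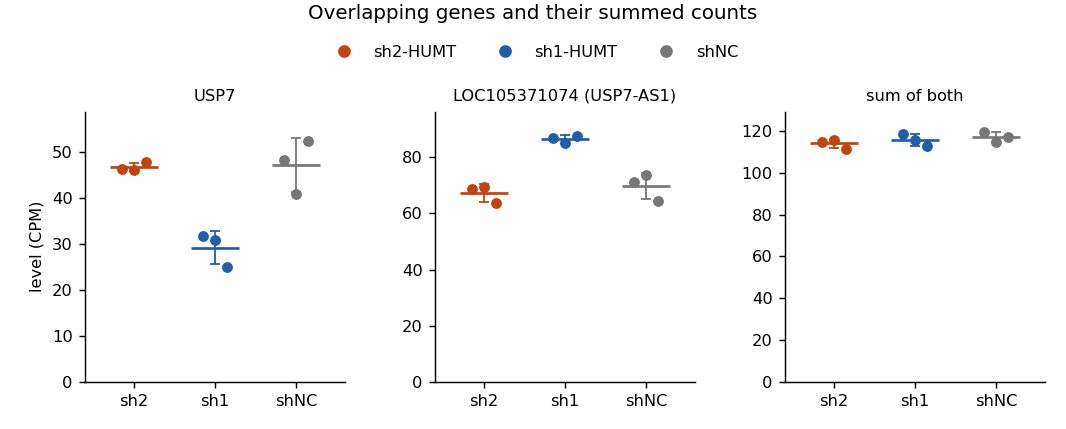
Levels (CPM) of USP7, of its antisense gene LOC105371074 and of their summed counts in every library, with sh2-HUMT left, sh1-HUMT in the middle and shNC right; lines are means and error bars SD (n = 3). The genes differ between the hairpins in opposite directions, and their sum does not separate sh2-HUMT (111.5 to 116 CPM) from sh1-HUMT (113 to 119 CPM).

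Among the called genes, LOC100996447 (MLF1-DT), a noncoding gene, and BGIG9606_68069, known only by a provider identifier, had no reads in sh1-HUMT. LOC100996447 had 22, 15 and 23 counts in sh2-HUMT, 0 in every sh1-HUMT library, and 25, 25 and 12 counts in shNC. BGIG9606_68069 had 14, 17 and 13 counts in sh2-HUMT, 0 in every sh1-HUMT library, and 21, 9 and 26 counts in shNC. Against a floor of 3 counts per library (0.134 CPM), their levels were at least 6.7-fold and at least 4.92-fold higher in sh2-HUMT (adjusted p = 0.0104 and 0.0249). LOC100996447 overlaps RSRC1, which had 24.9 to 26.7 CPM in sh2-HUMT and 26.6 to 27.5 CPM in sh1-HUMT. Their summed level changed by -0.04 (adjusted p = 0.819). RSRC1 made up nearly all of that sum, so the sum cannot tell whether reads were split between the entries.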

How the data were processed

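The authors deposited 1 table of 27059 genes with estimated counts per gene and library (91.3% of genes have a value that departs from a whole number by over 0.005), which can split reads between overlapping or near-identical genes; another 15 value columns were left out. The submitters' processing notes list HISAT2 (2.0.4), Bowtie2 (2.2.5), RSEM (1.2.12) and an early DESeq2 (1.4.5), with no roles, and no source used here states the build. Columns were assigned to samples by arm and replicate number, which the titles share with the headers. The design text describes another study and was not used.

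Counts were rounded and tested with edgeR 4.0.16 in R 4.3.3: TMM scaling, filterByExpr by group (18504 genes kept), and the robust quasi-likelihood test on all 9 libraries in 1 fit, with sh2-HUMT minus sh1-HUMT as the contrast, Benjamini-Hochberg adjustment over all genes, and a threshold of 0.05 with no minimum fold. Standard errors and intervals (95%) are on the log2 scale, and a floor of 3 counts covers counting error only. HUMT was matched to LINC00857 through the synonyms of a RefSeq gene table (GRCh38.p14), which also gave the promoter sequences.

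Lists (49, with 1090 entries, 1074 of them matched) are described by counts and medians without a test. Lists, members and tests were chosen with earlier results of these data known, and 6 families were added after the values were seen. The named genes are the 12 highest and 12 lowest called genes by log2 change, the 6 and 6 by CPM difference and the 6 and 6 by adjusted p, all with at least 5 CPM and libraries that do not overlap, up to 4 called members per list, and a fixed set of 22 genes; the other called genes and list members are named outside that rule, after their values were seen. A few called genes count in the totals and are not reported here.

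Replicates of a group differed by more than sampling noise (chi-square per degree of freedom from 3.07 to 6.94). The steps were tested on simulated counts. Alternatives were DESeq2 1.42.0, other scalings and filters, only the hairpin groups, the replicate number as a block, a GC and length correction (spline with 5 degrees of freedom; values for 85.8% of tested genes), removal of the 2 most abundant entries, a 2-fold minimum, summed overlapping genes, and leaving out each library.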

Additional observations from a re-analysis of the deposited data

Results flagged for a closer look

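In 3 of the called genes reported here the 3 sh2-HUMT libraries lay on one side of all shNC libraries and the 3 sh1-HUMT libraries on the other, so that the hairpins departed from the control in opposite directions. KIFC2 (sh2-HUMT minus sh1-HUMT 0.30 on the log2 scale), NPY4R2 (0.20) and C3 (0.14) were above the control in sh2-HUMT and below it in sh1-HUMT. Only the difference between the hairpins was tested here, not either departure from shNC. How many of all genes tested show such an order was not counted. After the GC and length correction none of the 3 was called (adjusted p = 0.096 for KIFC2, 0.112 for NPY4R2 and 0.107 for C3). NPY4R2 shares reads with its copy NPY4R, and their sum with ANXA8 changed by 0.03 (adjusted p = 0.773).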

How the results depend on the processing

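The 53 calls (20 higher, 33 lower, 10 of them ATF4 response genes) moved as follows. DESeq2 called 355 (167 higher, 188 lower) and gave no adjusted p for 6 of the 53; fitting only the hairpin groups gave 35 (11 higher); summing overlapping genes, added after the data were seen, 34 (8 higher); and a 2-fold minimum 2. The replicate numbers did not pair the hairpin libraries (correlations of same-numbered deviations -0.065, 0.057 and -0.009). With shNC the same correlations were -0.01, 0.147 and 0.105 for sh2-HUMT and 0.049, 0.195 and 0.303 for sh1-HUMT. With the replicate block 29 genes were called (7 higher). With the block in the hairpin groups alone 5 were called (3 higher, 2 lower), with 0 ATF4 response genes. None of the 53 main calls, HSPA1A included, was among these 5. The GC and length correction gave 7 higher, and 5 higher with the replicate block. Leaving out 1 library gave 1 to 155 calls, 1 to 89 higher, 0 to 66 lower and 0 to 9 ATF4 response genes lower. The other scalings and filters and the removal of abundant entries stayed within 1.5 times. No called gene reported here changed sign except in the sums. There USP7 (-0.021), RBM14-RBM4 (-0.031) and LOC100996447 (-0.039) reversed, each summed with entries whose own change was negative. Genes near 0 that were called in neither fit also changed sign: EGFR (0 with GC correction and block) and, leaving out 1 library, LDHA (-0.003 to 0.032), PKM (-0.027 to 0.024), CDH1 (-0.043 to 0.011), FOS (-0.044 to 0.046), HSPA6 (-0.921 to 0.295) and HSPA5 (-0.065 to 0.006). Of 1042 pairs of a called gene reported here and a setting, 610 kept direction and call and 429 kept direction only. Counting depth limits low genes most, such as HSPA6; the cause of the dependence on single libraries was not tested.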
